A study of Mus musculus with 9 samples.

Results

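The bladder of a healthy mouse 7 days after instillation of 17 mM alpha1-oleate was compared with the bladder of a healthy mouse that had received PBS in the same experiment. The 2 arrays were chosen by their titles and by the experiment they share, and they are 2 of the 9 arrays of the series. Both came from female C57BL/6J mice without tumour; the age of the mice, the number of instillations in the healthy mice and the collection time of the PBS bladder are not given in the labels. Alpha1-oleate is a complex of a peptide from alpha-lactalbumin with oleate, studied as a drug instilled into the bladder against cancer, and the healthy mice served to test toxicity. The other arrays of experiment 2 were a bladder labelled healthy and collected 24 h after 17 mM, and a tumour bladder given PBS and collected at 12 days, in which MB49 mouse bladder carcinoma cells had been instilled after poly-L-lysine. Experiment 1 held a second healthy PBS bladder, a second tumour bladder given PBS, and tumour bladders given 1.7, 8.5 or 17 mM. Each treated group was 1 array, and nothing in the labels says how many mice stand behind an array, so the difference at 7 days has no replicate of its own.

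The bladder wall is lined by urothelium, a layered epithelium whose umbrella cells carry plaques of uroplakins over basal cells that renew them. Beneath it lie a stroma of fibroblasts, vessels and resident macrophages and the detrusor, a coat of smooth muscle. After injury to the lining, acute inflammation brings neutrophils and cytokines, basal cells divide, and fibroblasts deposit and remodel collagen, in roughly that order. Values are RMA signals on the log2 scale, so a difference of 1 is a factor of 2, and for each gene the probe set with the highest mean was used. Of 17097 genes with a probe set of their own, 11969 were kept after the lowest 30% by mean signal were left out.

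The bladder markers were high on the 7 day array. On the 7 day array Upk1b read 11.75, Upk3a 11.66 and Krt5, a keratin of basal urothelium, 10.23. The smooth muscle markers Acta2 and Myh11 read 12.02 and 11.33. Of 13 transcripts high in the MB49 tumour 0 were past 2-fold and 2 past 1.5-fold higher than in the PBS bladder, Hbegf at 0.85 and Krt14 at 0.71, with a median of 0.08; Prkg2 read 3.29 against 3.21 and Mmp13 2.69 against 2.62. Their mean signal was 4.63 at 7 days, 4.49 with PBS and 8.43 in the tumour PBS bladder. S100a8, a calprotectin subunit of neutrophils, read 3.00 against 2.97. The array labelled healthy at 24 h went against its label, with Prkg2 at 6.27, Mmp13 at 6.24 and the liver transcript Alb at 8.80, and it is called by its label here. Across 11969 genes, the signals of the 7 day array ranked most like the PBS array of its own experiment (Spearman's rho 0.981) and next like the PBS array of experiment 1 (0.961); genes are not independent, and both healthy PBS arrays had 0.977 between them.

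The bladder at 7 days differed little from the PBS bladder in most genes. The median difference was -0.04 with a standard deviation over genes of 0.32, and 94.3% of genes lay within a factor of 1.5. At least 2-fold higher were 101 genes, 0.844% of those tested, and at least 2-fold lower were 71 genes, 0.593%. For scale, the healthy PBS arrays of both experiments, quantile-normalized together because the experiments had been normalized apart, differed from each other at least 2-fold in 133 genes (1.11%) one way and 126 genes (1.05%) the other, with a standard deviation of 0.38. That spread also holds the difference between experiments. The fit across all genes, limma with the experiment as a block and the spread taken from the PBS pairs, called 0 genes at an adjusted p of 0.05 (1096 at an unadjusted p under 0.05, smallest adjusted p 0.403), on 1 residual degree of freedom. Without the block it called 15 genes. The blocked fit after normalizing all 9 arrays together called 28 genes, 8 higher and 20 lower, all among the 101 and the 71, and without the block that normalization gave 0 calls (677 at an unadjusted p under 0.05, smallest adjusted p 0.104).

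Against the PBS array of experiment 1, after normalization together, all 101 and all 71 genes had the same sign, and 56 and 57 of them were again past 2-fold. That comparison counted 265 genes higher (2.21%) and 298 lower (2.49%), so the share of higher genes among those past 2-fold was 47.1% there and 58.7% against the PBS array of the same experiment. With the mean of both PBS arrays as control it was 46.7%.

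**Figure D1:**
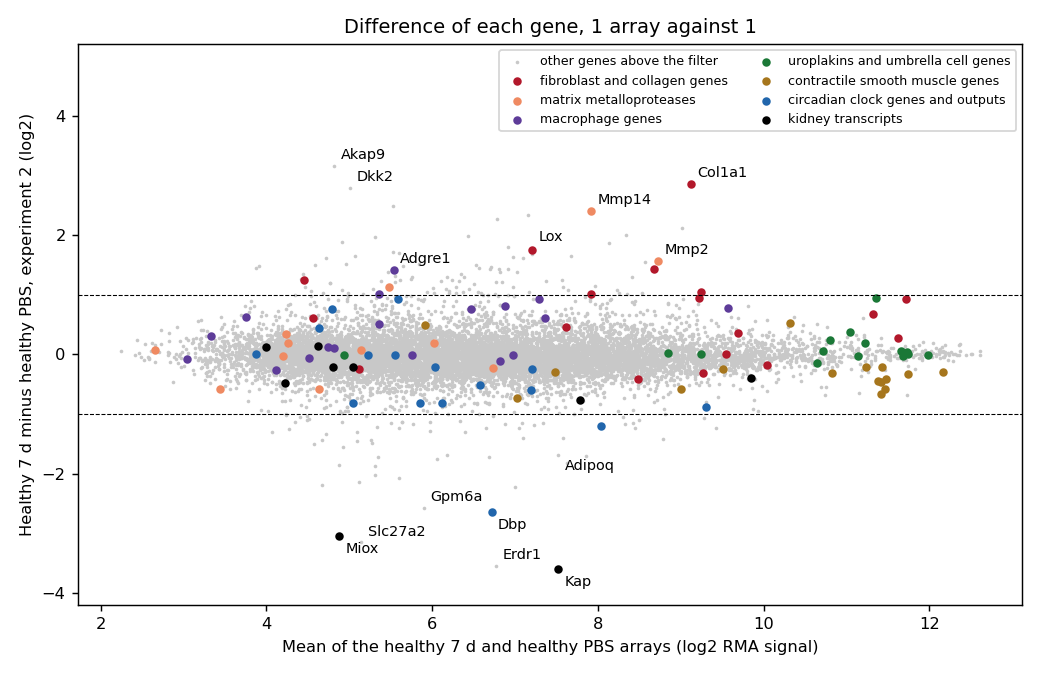
Difference between the 7 day array and the healthy PBS array of experiment 2 (y axis, log2) against their mean signal (x axis, log2 RMA signal), 1 point for each of 11969 genes, with members of 7 gene lists in colour and dashed lines at 2-fold. Collagen and metalloprotease genes reach 2.85 above 0 and kidney transcripts -3.60, while uroplakin genes lie between -0.15 and 0.95.

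Genes of the extracellular matrix and its remodelling made up the clearest group on the higher side. Of 18 fibroblast and collagen genes above the filter, 6 were at least 2-fold higher and 0 lower at 7 days, against 0.844% of all genes higher, and their median difference was 0.65 (0.73 against the PBS array of experiment 1) where the median of all genes was -0.04. Col1a1, the main chain of type I collagen, read 10.54 at 7 days and 7.69 in the PBS bladder, 9.99 on the array labelled 24 h and 8.71 in the tumour PBS bladder. The 7 day value was the highest and the PBS value of experiment 2 the lowest of all 9 arrays after normalization together. The difference was 2.85, or 7.21-fold, and 2.18 against the PBS array of experiment 1.

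Lox, the lysyl oxidase that cross-links collagen and elastin, read 8.08 at 7 days and 6.33 with PBS, with 8.13 on the array labelled 24 h and 7.12 in the tumour PBS bladder. Its difference of 1.75 was 2.05 against the other PBS array. Its other probe sets gave 1.14 and, at low signals of 2.56 against 2.52, 0.04. Loxl2, a second enzyme of that family, was 1.24 higher (1.54). Lox and Loxl2 were thus higher against both controls, and both PBS arrays lay close together, 0.28 apart for Lox and 0.12 for Loxl2. Col5a2, a chain of type V collagen that helps start fibrils, read 9.39 against 7.97, a difference of 1.42 (1.5), and both its probe sets were past 2-fold higher. Col6a1 and Col5a1 were 1.04 and 1.01 higher, and Col6a3 and Col3a1 0.95 and 0.93. Not every stromal gene shared this direction. Col14a1, Dpt and Pdgfra, which mark resident fibroblasts, read -0.41, -0.31 and -0.25, fibronectin (Fn1) 0.00 and decorin (Dcn) 0.27. Col1a2, the partner chain of Col1a1, has a single probe set that was below the filter at 3.29 and 2.84. In whole tissue, more fibroblasts and more RNA of these genes in each fibroblast cannot be told apart.

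Some matrix metalloproteases were higher as well, while others were near 0 or somewhat lower. Of 12 genes of metalloproteases and plasminogen activators above the filter, 3 were past 2-fold higher (background 0.844%) and 0 lower, with a median of 0.12 that was -0.17 against the PBS array of experiment 1 and -0.02 against the mean of both. Mmp14, a membrane-bound collagenase that activates Mmp2, read 9.12 against 6.72 (9.05 on the array labelled 24 h, 9.46 in the tumour PBS bladder), a difference of 2.40, with 2.63 from its second probe set and 1.74 against the other PBS array. Mmp2, a gelatinase of fibroblasts, read 9.51 at 7 days, the highest of the 9 arrays, against 7.95 with PBS, 9.45 on the array labelled 24 h and 7.39 in the tumour PBS bladder. Its difference of 1.56 was 1.68 against the other PBS array. Mmp12, a macrophage elastase, was 1.13 higher than the PBS array of experiment 2 and 3.32 higher than that of experiment 1, and the PBS arrays themselves differed by 2.08. Mmp9, Plau and Mmp13 read -0.58, -0.59 and 0.07. The signals of Plau (3.14 against 3.73) and Mmp13 (2.69 against 2.62) lay below the filter level of 4.16, where such values show little.

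Of 11 wound repair genes, 3 were past 2-fold higher (background 0.844%) and 0 lower, with a median of 0.64. Cthrc1, a secreted protein of injured stroma, was 1.35 higher (5.12 against 3.77), and tenascin C (Tnc), a matrix glycoprotein of healing tissue, 1.13 higher (8.14 against 7.01). Tgfb1, which encodes the growth factor that drives collagen synthesis, was 1.11 higher (6.57 against 5.46). These 3 genes were 1.04 to 1.46 higher against the PBS array of experiment 1. The second probe set of Tnc gave 0.12, at low signals of 2.45 against 2.33. Acta2, shared by smooth muscle and myofibroblasts, read -0.29, and the early response matrix gene Ccn1 -0.89.

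Dkk2, a secreted modulator of WNT signalling, ranked behind only Akap9 and Col1a1 among all genes. It read 6.40 at 7 days, 3.62 with PBS, 6.80 on the array labelled 24 h and 3.70 in the tumour PBS bladder. In experiment 2 the 7 day array and the array labelled 24 h, which went against its label, were high and the PBS arrays low. After normalization together the 7 day value ranked 7 of 9 from the lowest, so it was not the highest of the series. The difference at 7 days was 2.78 (6.87-fold) and 2.24 against the other PBS array. With the experiment as a block, limma gave Dkk2 an adjusted p of 0.403 on the deposited values and of 0.0201 after normalization of all arrays together. The fit on arrays normalized together also called the fibrillar collagen gene Col11a1, which read 5.53 against 3.91. It called asporin (Aspn), a small proteoglycan that read 5.33 against 3.84, and the chemokine gene Cxcl14, which read 7.91 against 6.29. None of these 3 is in a list, and they are named because that fit called them. Not every collagen gene it called was higher: Col8a2 was called lower, with a fitted difference of -1.78.

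**Figure D2:**
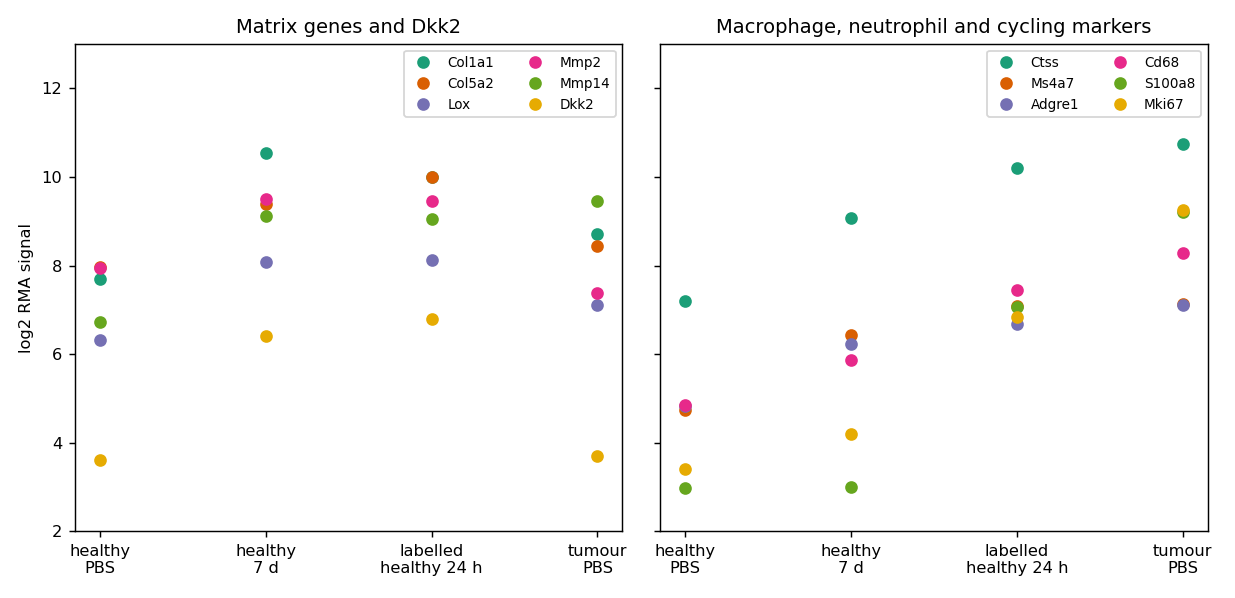
Signal (y axis, log2 RMA) of 6 genes a panel on the 4 arrays of experiment 2, 1 point an array. The matrix genes and Dkk2 lie higher at 7 days than with PBS (Col1a1 10.54 against 7.69), and the macrophage genes lie between the PBS array and the tumour PBS array (Cd68 4.86, 5.87 and 8.28), while S100a8 stays at 3.00 at 7 days.

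Macrophage genes lay moderately higher. Of 18 above the filter, 2 were past 2-fold higher (background 0.844%) and 8 past 1.5-fold higher (background 2.97%). None were lower past either, and the median was 0.41 (0.35 against the other PBS array). Adgre1, which encodes the macrophage surface marker F4/80, read 6.24 at 7 days, 4.83 with PBS, 6.67 on the array labelled 24 h and 7.12 in the tumour PBS bladder. Its difference of 1.41 was 0.68 against the other PBS array. Cd68, a lysosomal protein of phagocytes, read 5.87 against 4.86, with 7.45 and 8.28 on the other arrays of experiment 2. The 7 day value of both genes lay above both PBS arrays and below every array of a tumour-bearing bladder and the array labelled 24 h.

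The complement genes C1qb, C1qc and C1qa, made by tissue macrophages, were 0.92, 0.81 and 0.60 higher. Csf1r, the receptor for the macrophage growth factor, was 0.76 higher, and Lyz2 0.77. The lysosomal protease gene Ctss read 9.07 against 7.21 and Ms4a7, a membrane protein of macrophages, 6.44 against 4.75; both are outside the list and are named because the fit on arrays normalized together called them. Genes typical of resident macrophages did not share this direction: Cd163, Folr2 and Mrc1 read -0.07, -0.01 and -0.11. Genes of other leukocytes were near 0, with medians of -0.06 for 11 neutrophil genes and 0.00 for 11 T and NK cell genes. The median was 0.03 for 9 genes of class II presentation and dendritic cells, and each list had 0 genes past 2-fold. Mean signals at 7 days and with PBS were 4.17 and 4.21 for the neutrophil genes. For the T and NK cell genes they were 4.07 and 4.01. These lie near the filter level of 4.16, where a lack of difference shows little.

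Inflammatory and stress genes lay close to the PBS bladder. Of 14 cytokine and neutrophil attractant genes 0 were past 2-fold, with a median of 0.04. Their mean signals of 4.06 at 7 days and 4.03 with PBS lay below the filter level of 4.16, where a lack of difference shows little. Il1b, the cytokine interleukin 1 beta, read 3.74 against 4.37, and the neutrophil chemokine gene Cxcl1 3.31 against 3.11. On the array labelled 24 h they read 6.47 and 4.69, and in the tumour PBS bladder 7.47 and 7.31. The furthest from 0 was Ccl3 at 0.70. The medians were -0.05 for 7 acute phase genes and -0.09 for 15 interferon and antigen presentation genes, and neither list held a gene past 2-fold, with Gbp2 furthest at -0.72.

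Hmox1, the heme oxygenase induced by oxidative stress, read 5.59 against 5.72, and 14 genes of NRF2 and glutathione defence had a median of -0.06. Of 12 heat shock chaperones 0 were past 2-fold, with a median of -0.24; Hspa1b, an inducible chaperone, read 9.73 against 10.35, and its 3 probe sets ranged from -0.64 to -0.60. Among 15 genes of the unfolded protein response 1 was past 2-fold higher (background 0.844%), Dnajc3 at 1.29, but its 5 probe sets ranged from -0.42 to 1.29. The medians were -0.03 for 13 integrated stress response genes, -0.01 for 14 p53 targets and 0.03 for 15 cell death genes, in which Bcl2, a survival gene, was furthest at -0.98; its other probe set gave 0.07.

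Proliferation genes were low on both arrays. Of 23 cell cycle genes 0 were past 2-fold, with a median of 0.05. Their mean signal was 4.0 at 7 days and 3.93 with PBS, against 7.96 in the tumour PBS bladder. Both healthy means lay below the filter level of 4.16, where a lack of difference shows little. Mki67, which marks dividing cells, was the furthest at 0.78 (4.19 against 3.41, and 0.65 against the other PBS array). The 23 genes of DNA replication had a median of -0.20, with Rrm2 at 0.71 and Rfc4 at -0.75.

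**Figure D3:**
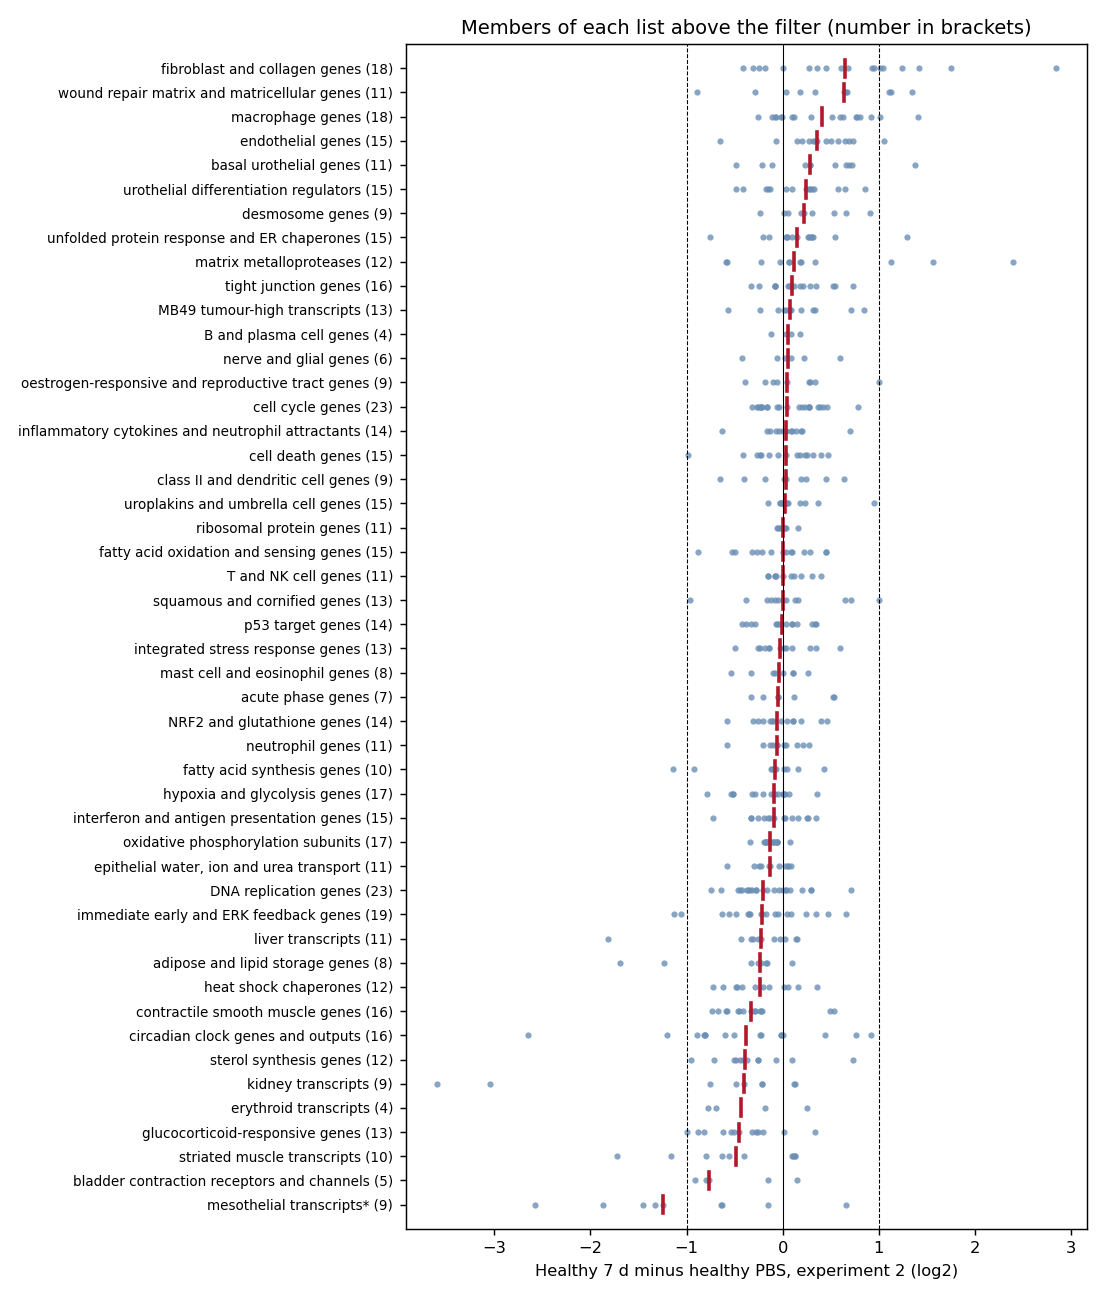
Difference between the 7 day array and the healthy PBS array of experiment 2 (x axis, log2) for the members of each gene list above the filter, 1 point a gene, with the list's median as a red bar and the number of genes in brackets; the list with an asterisk was written after the values were seen. Fibroblast and collagen genes have a median of 0.65, uroplakin genes of 0.02 and circadian clock genes of -0.38.

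Genes of the differentiated urothelium lay close to the PBS bladder at 7 days. Of 15 uroplakin and umbrella cell genes 0 were past 2-fold, and the median was 0.02. Upk2 read 11.23 at 7 days, 10.86 with PBS, 10.36 on the array labelled 24 h and 7.43 in the tumour PBS bladder. Upk1a was the furthest, 11.83 against 10.88, a difference of 0.95 (1.03 against the other PBS array). Upk2 and Upk1a were thus highest at 7 days among the 9 arrays, and Upk1b, Upk3a and the umbrella cell keratin gene Krt20 read 0.01, -0.03 and 0.01.

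Of 11 basal urothelial genes 1 was past 2-fold higher (background 0.844%) and 0 lower, with a median of 0.29. That gene was Col17a1, a collagen of the hemidesmosomes that anchor basal cells, at 6.16 against 4.78; the difference of 1.38 was 0.87 against the other PBS array, and the 7 day value was the highest of the 9 arrays. Of the other genes of the anchoring complex in the list, Itgb4, Lamb3, Itga6 and Dst were 0.72, 0.69, 0.54 and 0.28 higher, and Lama3 was at -0.21. Krt5 was 0.23 higher, at 10.23, and Trp63, the transcription factor of basal cells, 8.95 against 9.43. Among 15 regulators of urothelial differentiation the median was 0.24 with 0 past 2-fold, Rarg at 0.86 and Grhl2 at 0.65 being furthest. The 16 tight junction genes had a median of 0.10 with Cldn5, the claudin of endothelium, furthest at 0.73. The 9 desmosome genes had a median of 0.22 with plakoglobin (Jup) furthest at 0.91. The 13 squamous and cornified genes had a median of 0.00, and 1 (background 0.844%), Sprr2f, lay exactly at 2-fold higher (4.85 against 3.85).

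Of 15 endothelial genes 1 was past 2-fold higher (background 0.844%), the receptor gene Tie1 at 1.06 (5.07 against 4.01, and 0.89 against the other PBS array). The median was 0.36, and 13 of the 15 were above 0. The lymphatic marker Lyve1 read -0.65.

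Smooth muscle genes lay slightly lower than in the PBS bladder of the same experiment, and close to the PBS bladder of the other experiment. Of 16 contractile genes 14 were below 0 and 0 were past 2-fold, with a median of -0.33 against the PBS array of experiment 2 and -0.03 against that of experiment 1. Acta2, smooth muscle actin, read 12.02 against 12.31, and Actg2, its enteric form, 11.08 against 11.75. Casq2, a calcium store protein, was furthest at -0.74. The 5 receptors and channels of contraction above the filter had a median of -0.77 (-0.44), with Kcnmb1, a subunit of the large potassium channel, at -0.91 and P2rx1, the receptor for ATP from nerves, at -0.80. Against the PBS array of experiment 1 these were -0.72 and -0.44.

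Genes of the circadian clock differed in both directions, with the output gene Dbp furthest from 0. In the clock, the proteins of Arntl (BMAL1) and Clock or Npas2 bind E-boxes and drive the Per and Cry genes, which inhibit them, and the Nr1d genes, whose products repress Arntl; Dbp, Tef and Hlf encode output factors that bind D-boxes, and Nfil3 opposes them. Of 16 genes above the filter 2 were past 2-fold lower (background 0.593%) and 0 higher. Past 1.5-fold, 7 were lower (background 2.74%) and 2 higher (background 2.97%). The median was -0.38 (-0.58 against the other PBS array). Dbp read 5.39 at 7 days, 8.04 with PBS, 7.89 on the array labelled 24 h and 4.32 in the tumour PBS bladder. The difference was -2.65, or 6.28-fold lower, and -2.74 against the other PBS array, while the PBS arrays were within 0.01 of each other. Tef read 7.44, 8.64, 8.15 and 6.14 in the same order, a difference of -1.20 (-1.16), and its second probe set gave -0.39.

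The repressor gene Nr1d2 was at -0.89, Per1 at -0.82, and Per3 and Ciart each at -0.81. Per2 was below the filter and read 3.60 against 5.33. The driver gene Arntl lay the other way at 0.92 (6.05 against 5.13, and 1.44 against the other PBS array), as did Nfil3 at 0.76 and Npas2 at 0.44. Dbp, Tef, Nr1d2, Per1, Per3 and Ciart were thus low and Arntl high against both PBS bladders, whereas the output gene Hlf and the repressor genes Cry1 and Bhlhe41 were at or near 0 within the experiment. The labels do not give the hour of collection, and its part in these values was not tested.

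Promoters of 3 of these genes are shown because they carry E-boxes in the window from 250 bases before to 50 bases after the transcription start and their genes were at least 1.5-fold lower at 7 days. The sequences are from RefSeq, build GRCm38.p6, and capitals mark the motifs searched: the E-box CACGTG, which reads the same on both strands, and the D-box TTATGNAA, searched on both strands; the motifs do not overlap in these windows. The Tef window is chr15:81802423-81802722 on the plus strand, that of Per1 is chr11:69098699-69098998 on the plus strand, and that of Ciart is chr3:95882179-95882478 on the minus strand.
Tef: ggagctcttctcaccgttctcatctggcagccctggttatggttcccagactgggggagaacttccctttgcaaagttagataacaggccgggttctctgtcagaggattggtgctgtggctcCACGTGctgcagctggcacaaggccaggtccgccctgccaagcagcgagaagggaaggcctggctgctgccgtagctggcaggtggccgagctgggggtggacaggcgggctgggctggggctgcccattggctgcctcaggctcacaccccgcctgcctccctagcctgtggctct
Per1: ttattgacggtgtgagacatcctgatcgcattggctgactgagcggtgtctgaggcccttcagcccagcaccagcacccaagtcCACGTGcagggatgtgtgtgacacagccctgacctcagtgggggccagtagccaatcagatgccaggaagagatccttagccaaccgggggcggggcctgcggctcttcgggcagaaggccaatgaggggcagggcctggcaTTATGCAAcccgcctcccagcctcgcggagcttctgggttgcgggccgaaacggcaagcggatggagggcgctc
Ciart: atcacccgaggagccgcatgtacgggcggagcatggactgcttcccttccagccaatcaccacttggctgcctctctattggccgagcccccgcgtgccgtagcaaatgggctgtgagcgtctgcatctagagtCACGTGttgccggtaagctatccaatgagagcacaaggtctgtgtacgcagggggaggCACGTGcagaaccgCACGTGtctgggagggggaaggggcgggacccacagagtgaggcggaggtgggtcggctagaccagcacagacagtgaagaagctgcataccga

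The Tef window holds 1 E-box, 127 bases before the start. The Per1 window holds 1 E-box 166 bases and 1 D-box 24 bases before the start, and the Ciart window holds 3 E-boxes, the first 116 bases before the start. Of the 16 clock genes 15 had a promoter in the table, and 5 of them held the E-box in a window: Bhlhe41, Ciart, Cry1, Per1 and Tef. The D-box was in windows of Per1 and Per3. Over all 32851 promoter windows, 7.15% held the E-box and 3.38% the D-box. Bhlhe41 and Cry1, with an E-box, were at 0.00 and -0.02. Dbp, with the largest difference, was not among the genes with either motif. Only these exact letters in these short windows were searched, and a link between motifs and differences was not tested.

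**Figure D4:**
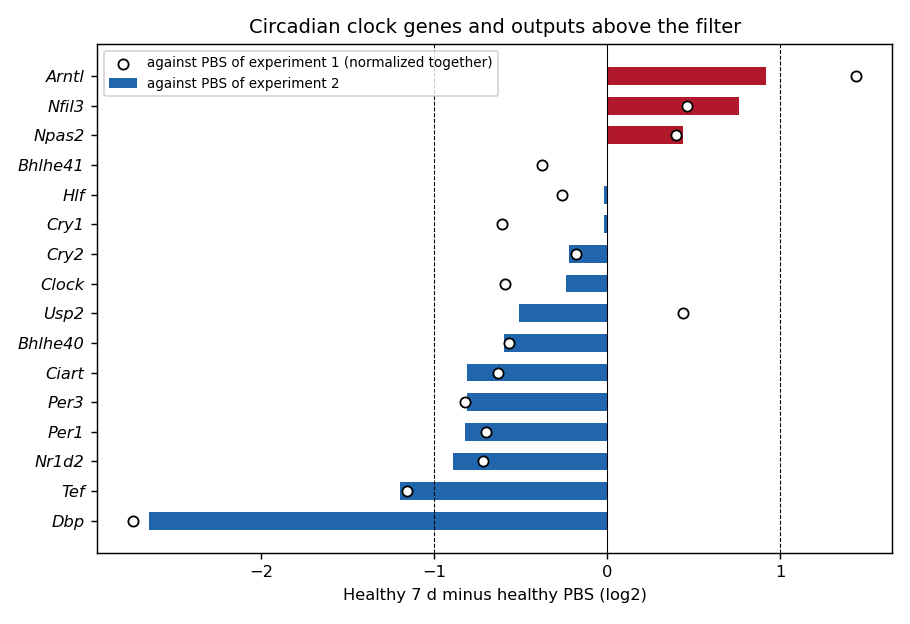
Difference of 16 circadian clock genes and outputs between the 7 day array and the healthy PBS array of experiment 2 (bars, x axis, log2), with the difference from the PBS array of experiment 1 after normalization together as open circles and dashed lines at 2-fold. Dbp is lowest at -2.65 and -2.74, and Arntl is highest at 0.92 and 1.44.

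Many of the lowest genes were transcripts typical of tissues other than the bladder wall. Of 9 kidney transcripts above the filter 2 were past 2-fold lower (background 0.593%) and 0 higher, with a median of -0.40 (-0.58). Kap, an androgen-regulated protein of kidney tubule, read 5.72 at 7 days, 9.32 with PBS, 7.53 on the array labelled 24 h and 6.07 in the tumour PBS bladder. The difference was -3.60, or 12.1-fold lower, with -5.84 from its second probe set and -3.36 against the other PBS array. Miox, an inositol oxygenase of kidney, read 3.35 against 6.40, with 4.48 and 3.45 on the other arrays of experiment 2. Both healthy PBS bladders were high in Kap and Miox and lay within 0.28 and 0.36 of each other. Umod, a defining transcript of the kidney, was below the filter over the 9 arrays and read 3.88 against 6.42. The mean signal of the 9 kidney transcripts was 5.39 at 7 days and 6.33 with PBS, 5.67 on the array labelled 24 h and 4.29 in the tumour PBS bladder.

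Other genes among the 12 lowest have known high expression in kidney or liver. Slc27a2, a fatty acid transport protein, read 3.57 against 6.72, a difference of -3.15 (-3.86 against the other PBS array). Aadat, an enzyme of lysine and tryptophan breakdown, read 3.58 against 5.77, and Hsd3b4, a steroid dehydrogenase, 4.05 against 6.19. Fxyd2, a subunit of the sodium pump in kidney tubules, read 4.30 against 6.33, a difference of -2.03. Its other probe sets gave -1.48, -1.05 and, at low signals of 3.59 against 3.54, 0.05. Of 11 liver transcripts 1 was past 2-fold lower (background 0.593%), Cyp2e1 at -1.82 (6.72 against 8.54). Alb, which defines liver, was low on both arrays at 3.52 and 3.85.

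Some of the lowest genes are known from the mesothelium, the sheet that covers the outside of abdominal organs. A list of mesothelial genes was written after the values were seen, and it holds Gpm6a and Rspo1 of the 12 lowest, so its values are only a description. Of its 9 members above the filter 5 were past 2-fold lower (background 0.593%), with a median of -1.24, and nothing is read from that count. Gpm6a, a membrane glycoprotein, read 4.61 at 7 days, 7.19 with PBS, 5.62 on the array labelled 24 h and 3.01 in the tumour PBS bladder. Rspo1, a secreted WNT amplifier, read 4.38 against 6.25, and Msln, mesothelin, 4.05 against 5.38. Against the PBS array of experiment 1 the differences were -3.49, -2.93 and -1.98, larger than those within the experiment. Msln read 6.29 on the array labelled 24 h and 9.19 in the tumour PBS bladder. Both lay above its PBS value, whereas Gpm6a and Rspo1 lay below theirs on those arrays. Upk3b, which mesothelium and urothelium share, read -0.15. The mean signal of the 9 genes was 5.84 at 7 days and 6.87 with PBS.

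A few fat and muscle transcripts were lower. Of 8 adipose genes above the filter 2 were past 2-fold lower (background 0.593%), with a median of -0.24: Adipoq, the fat cell hormone adiponectin, at 6.68 against 8.37 and Retn, resistin, at 6.43 against 7.66. Adipoq was -1.50 and Retn -1.38 against the other PBS array, while Lpl and Fabp4, which other cells also make, were at -0.33 and -0.17. Of 10 striated muscle genes 2 were past 2-fold lower (the same background), Myh2 at -1.72 and Actc1 at -1.16, with a median of -0.48 and 4 of the 10 above 0. Of 4 erythroid genes 0 were past 2-fold, with the haemoglobin gene Hba-a1 at -0.69. Most members of the kidney, adipose and striated muscle lists were within 2-fold, and the part in these values of tissue around the bladder was not tested.

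Of the 12 lowest genes, 2 were the lowest of all 9 arrays at 7 days without belonging to such a group. Erdr1, whose gene lies in the pseudoautosomal region of the sex chromosomes, read 5.00 at 7 days against 8.55 with PBS, 8.44 on the array labelled 24 h and 9.29 in the tumour PBS bladder. Slc39a8, a zinc and manganese importer, read 4.57 against 6.64, 6.09 and 7.13. Its other probe set differed by only -0.30, at low signals of 3.78 against 4.08. Erdr1 and Slc39a8 were thus lower at 7 days than on any other array. Npy6r, a neuropeptide Y receptor gene, read 5.89 against 8.12, and its 2 probe sets gave -2.23 and -2.09.

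Several of the highest genes had a low value in the PBS array of experiment 2. Among the 101 genes past 2-fold higher, that array was the lowest of all 9 arrays in 62, and the 7 day array was the highest in 37. Over all genes these shares were 10.4% and 15.5%. The 101 genes were picked by the difference between these 2 arrays, so the selection itself raises both counts. Among the 71 lower genes the PBS array was the highest in 22 and the 7 day array the lowest in 19. Over all 11969 genes the PBS array was the highest in 1904 and the 7 day array the lowest in 1914. Selection raises the counts among the lower genes in the same way. Akap9, a scaffold protein of the Golgi and centrosome, headed all genes at 6.39 against 3.24, with 5.28 on the array labelled 24 h and 5.54 in the tumour PBS bladder. The PBS array of experiment 2 was 2.31 below that of experiment 1, against which the 7 day difference was 1.12. The other probe sets of Akap9 gave 0.20 to 0.63, at low signals of 3.34 to 4.36 at 7 days. Akap9 was thus low in 1 PBS bladder and middling in the other.

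For other genes at the top of the ranking the PBS arrays also differed. Thoc2 (messenger RNA export), Srrm2 (splicing), Zbtb7a (a transcriptional repressor), Smc6 (DNA repair) and Ramp2 (a receptor partner for adrenomedullin) were 1.88 to 2.26 higher within the experiment. They were only 0.55 to 1.10 higher against the other PBS array. Trim2, Crebbp, a histone acetyltransferase, and Chd4, a chromatin remodeller, were 2.49, 2.33 and 1.96 higher, and 1.30 to 1.44 higher against the other PBS array. The probe sets of Thoc2 ranged from 0.01 to 2.29, those of Srrm2 from 0.51 to 1.99 and those of Smc6 from -0.40 to 1.88. Those of Zbtb7a ranged from 0.05 to 1.98 and those of Ramp2 from 0.65 to 2.23. Over all 101 genes, 46 had another probe set above the filter, and of these 74 probe sets 52 had the same sign and 14 were past 2-fold. For the 71 lower genes 18 of 19 had the same sign and 6 were past 2-fold.

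**Figure D5:**
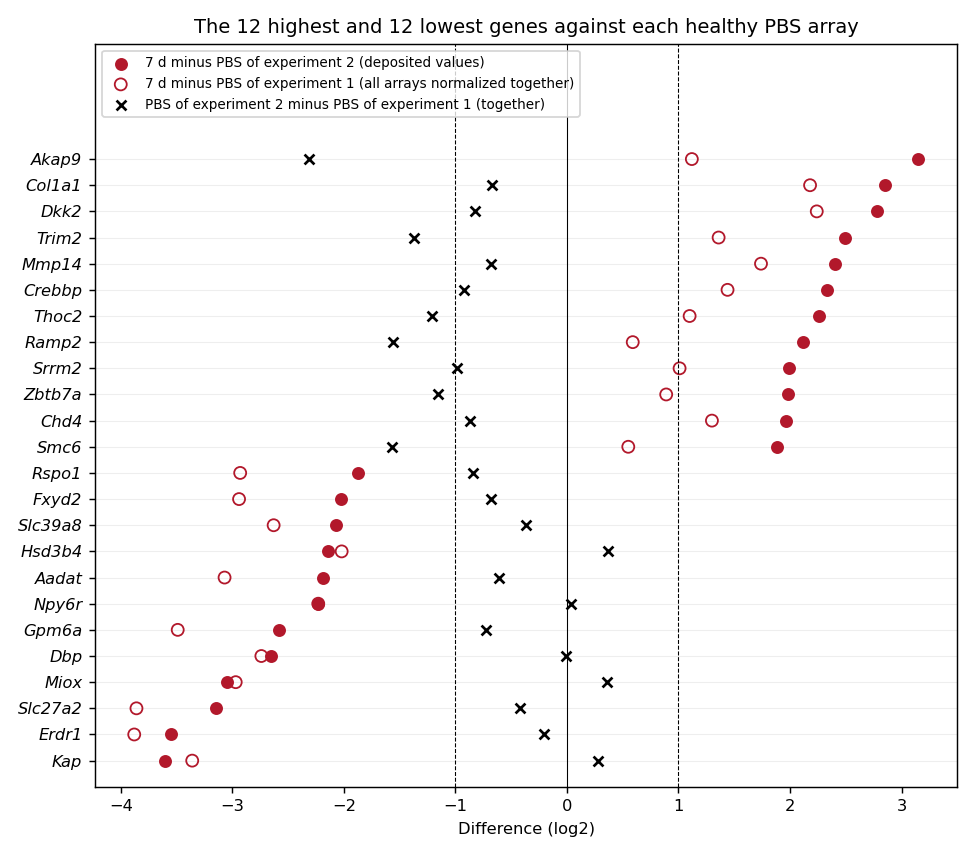
Differences (x axis, log2) of the 12 highest and 12 lowest genes (y axis) between the 7 day array and the healthy PBS array of experiment 2 (filled) or experiment 1 (open), with the difference between both PBS arrays as crosses and dashed lines at 2-fold. For Akap9 the PBS arrays differ by -2.31, whereas for Kap and Dbp they differ by 0.28 and -0.01 and both comparisons lie at -2.65 or below.

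Several genes that answer hormones and growth factors within hours were lower. The 13 glucocorticoid-responsive genes had a median of -0.45 against either PBS array, with 0 past 2-fold and 4 past 1.5-fold lower (background 2.74%). Tsc22d3, an anti-inflammatory target of glucocorticoids, read 7.04 against 8.03, and the kinase gene Pdk4 was at -0.88. Among 19 immediate early and ERK feedback genes 2 were past 2-fold lower (background 0.593%). They were Dusp1, a phosphatase that limits MAP kinases, at 7.77 against 8.83, and Etv5, a transcription factor downstream of ERK, at 5.07 against 6.20. After normalization together the 7 day array was the lowest of the 9 for Dusp1, Etv5 and Tsc22d3. Fos and Egr1 read -0.56 and -0.35 and Junb 0.66, so the list had no common direction.

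Lipid metabolism genes, of interest because the instilled complex carries oleate, were near 0 in most cases. The 15 genes of fatty acid oxidation and sensing had a median of 0.00 with 0 past 2-fold; Plin2, which coats lipid droplets, read 0.03 and Cpt1a, the gate of mitochondrial import, 0.45. Of 10 fatty acid synthesis genes 1 was past 2-fold lower (background 0.593%), Thrsp at -1.14, and the desaturase gene Scd1, which makes oleate, was at -0.92. The 12 sterol synthesis genes had a median of -0.39 (-0.17), with lanosterol synthase (Lss) furthest at -0.95. The 17 oxidative phosphorylation and 11 ribosomal protein genes had medians of -0.13 and 0.00. The 17 hypoxia and glycolysis genes had a median of -0.09.

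The array labelled 24 h shares its PBS control with the 7 day array, so both sets of differences move together with that control, and only the values are given. Col1a1 was 2.85 higher at 7 days and 2.30 higher on the array labelled 24 h, and Dkk2 2.78 and 3.18. Kap was at -3.60 and -1.79, and Dbp at -2.65 and -0.15. Among the 101 genes higher at 7 days, 59 read higher at 7 days than on the array labelled 24 h. These genes were picked by a high value at 7 days, so the selection itself raises this count, and nothing is read from it.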

How the data were processed

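Bladder RNA of 9 samples in 7 groups was measured on Affymetrix mouse arrays, 1 array a sample, after 100 ng of total RNA had been amplified from the 3' end, per the labels' protocols. The values analysed are the authors' deposited table on the log2 scale, and the submitters' processing notes name RMA and version 4.0.1.36 of the Transcriptome Analysis Console; the genome build is not given in the sources used here. RMA corrects background, equalizes the distribution of signal between arrays and summarizes probes, so a change of most genes in one direction would not show. Sorted values deviated by 0.022 within each experiment and by 0.329 between experiments, so the experiments had been normalized apart, and differences were taken within experiment 2.

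Of 45077 probe sets, 28898 had 1 gene in GEO's platform annotation, 551 several, 15588 none, and 40 were controls; 28689 matched a current symbol by Entrez number. The probe set with the highest mean over the 9 arrays stood for each of 17097 genes, and the 30% of genes with the lowest means, below 4.16, were left out. The difference is the 7 day value minus the PBS value of experiment 2, and past 2-fold means at least 1 on the log2 scale. The array medians were 4.24 for both arrays. With 1 array a side, the number of arrays limits the precision, and no p-value comes from this pair. The test was limma 3.58.1 (R 4.3.3) on the 9 arrays, with 7 groups, the experiment as a block and Benjamini-Hochberg adjustment; single arrays are assumed to vary like the PBS pairs. The method was tested on simulated data. Comparisons with the PBS array of experiment 1 used the 9 arrays quantile-normalized together. Whether same-numbered arrays share a deviation was checked: the deviations of the healthy and tumour PBS pairs from their group means correlated at 0.647 over genes, and the labels give the shared experiment.

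Genes named are the 12 highest and 12 lowest, up to 4 members of each list past 2-fold or otherwise up to 2 furthest from 0, and Upk2, Krt5, Acta2, Col1a1, Mki67, Il1b, S100a8, Cxcl1, Hmox1 and Xist; other list members were added after their values were seen. The comparison and the gene lists were chosen with earlier results of these data known. Symbols and promoter windows come from RefSeq (GRCm38.p6). Alternatives were another normalization, control, centring, filter, fold threshold and probe set rule, and fits without the block or without 1 array. Python 3.11.15 with pandas 2.3.3 was used elsewhere. Listed genes without a probe set of their own were not analysed here.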

Additional observations from a re-analysis of the deposited data

Results flagged for a closer look

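Probe sets that name no single gene were outside the comparison, and some differed past 2-fold between the 7 day array and the PBS array of experiment 2. Of 5915 such probe sets above the filter, 122 were at least 2-fold higher and 27 at least 2-fold lower. Among the 11969 genes the counts were 101 (0.844%) and 71 (0.593%). The higher share was thus larger in these probe sets than in the genes, and the lower share smaller. The shares are not like for like. Each gene stands by its brightest probe set alone, whereas every unnamed probe set above the filter was counted. The furthest on the higher side read 7.22 at 7 days and 3.80 with PBS, and the furthest on the lower side 6.42 and 9.59. The same probe sets read 5.87 and 10.3 in the PBS array of experiment 1 on its own scale. These signals have no replicate, and the PBS level is the only control.

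Eno3, the muscle form of the glycolytic enzyme enolase, was at -1.12 at 7 days and at 1.0 on the array labelled 24 h, past 2-fold in opposite directions from the same PBS array. It read 5.78 at 7 days, 6.90 with PBS, 7.90 on the array labelled 24 h and 9.33 in the tumour PBS bladder. It was the 1 gene with this pattern, and the difference between the times was not tested.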

How the results depend on the processing

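Of 101 genes higher and 71 lower, the counts were 265 and 298 against the PBS array of experiment 1, and 114 lower with the mean of both PBS arrays. They were 43 lower with the lowest 50% of genes left out, 356 and 328 at 1.5-fold, and 23 and 20 at 3-fold. Other settings gave 75 to 118 higher and 55 to 87 lower. The 49 named genes past 2-fold kept their direction in all 5 settings of control, scaling and probe set rule, and 38 stayed past 2-fold against the PBS array of experiment 1 and 43 with the mean over probe sets. Every setting used the same 7 day array by which these genes were picked, so the kept direction is partly built in. Without the mesothelial list, which was written after the values were seen, list medians at least 0.5 from 0 numbered 3, and 5 against the PBS array of experiment 1, 8 with the lowest 50% left out and 5 with a filter on experiment 2. limma with the experiment as replicate block called 0 genes; it called 15 without the block and 28 with the block after normalizing the arrays together. Leaving out 1 PBS array, without the block since no residual degree of freedom is left with it, gave 7 to 21 calls, the lowest without healthy PBS of experiment 1 and 17 without that of experiment 2. Normalization together without the block called 0 (677 at an unadjusted p under 0.05), and the settings of filter, variance trend and probe set mean called 0 (945 to 1358). The fit without the block on the deposited values used 1 common spread for all genes. It also averaged healthy PBS arrays of experiments that had been normalized apart. The cause of the differences between fits was not tested. Single arrays, separate normalization of the experiments and low signals set the limit: a difference of 1 array from 1 cannot be told from the difference between mice.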

Other observations

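Among genes outside the lists, Ptprz1, a receptor phosphatase, read 4.53 at 7 days against 6.01 with PBS. Xist, the RNA of the inactive X chromosome, read 10.17 against 10.22 in its brightest probe set, whereas its 3 probe sets ranged from -0.05 to 2.12. The heparin-binding growth factor gene Hbegf was 0.85 higher within the experiment and 1.25 higher against the other PBS array.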
